A study of Mus musculus with 3 samples.

Results

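The genes described here are 8 that define the identity of regulatory T cells (Tregs): Foxp3, Ikzf2, Ikzf4, Nrp1, Lrrc32, Gpr83, Il1rl1 and Areg, out of 32285 genes in the count tables. They were chosen by name as established Treg genes, with earlier results of these data known, and followed across T-cell classes from inflamed islets. The data were droplet single-cell RNA-seq of 3 libraries, each of live leukocytes sorted by CD45 from dispersed pancreatic islets of female wild-type NOD mice, a strain that develops autoimmune diabetes spontaneously. The mice were 15 to 16 weeks old and untreated as far as the labels say, and 2 to 3 of them were pooled per library. All classes compared below come from these same 3 libraries, so the groups differ only in the transcripts that a cell carried. The 3 libraries came from 2 experiments, so 2 of them share one. Which these are is not given in the sources used here. Each main fit had a term for library, which takes up level differences between experiments. Whether class differences varied between experiments was not tested.

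Tregs are CD4 T cells that restrain autoimmune responses, and loss of their master transcription factor Foxp3 causes fatal autoimmunity. Ikzf2 (Helios) and Ikzf4 (Eos) are Ikaros-family zinc-finger factors that work with Foxp3. Nrp1 (neuropilin-1), Lrrc32 (GARP), Gpr83 and Il1rl1 (ST2) are surface receptors, and Areg (amphiregulin) is a secreted growth factor linked to tissue repair. Several of them are also known outside the Treg lineage: Helios in activated T cells and in CD8 cells with regulatory function, Nrp1 in dendritic cells and endothelium, and ST2 in mast cells and type-2 innate lymphoid cells. In the NOD islet, where CD8 T cells that carry the inhibitory receptor PD1 (gene Pdcd1) accumulate, the question was which of these genes were particular to Foxp3+ cells and which also marked PD1+ CD8 cells.

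Classes were set by the raw transcript counts of a cell. A transcript is counted by its unique molecular identifier (UMI). Of 26947 barcodes, 26142 had at least 1000 UMIs and under 10% mitochondrial UMIs. A Treg had a Cd3e UMI, a Foxp3 UMI and no Cd8a or Cd8b1 UMI; a CD4 cell had a Cd4 UMI in place of Foxp3; and a CD8 cell had at least 2 Cd8a or Cd8b1 UMIs and no Cd4. CD4 and CD8 cells were then split into Pdcd1+ cells (at least 1 UMI) and Pdcd1- cells (none). This gave 1390 Tregs (279, 483 and 628 in libraries 1, 2 and 3), 2003 Pdcd1+ CD4, 3855 Pdcd1- CD4, 1101 Pdcd1+ CD8 and 2157 Pdcd1- CD8 cells. Another 7572 cells with a Cd3e UMI met no class and were left out of the comparisons.

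Depth differed between libraries and classes. Library totals were 33851381, 74775394 and 80806452 UMIs, and the median per cell ranged over the libraries from 4546 to 9141 UMIs in Tregs, from 4720 to 7331 in Pdcd1+ CD4 cells and from 5896 to 8834 in Pdcd1+ CD8 cells. Levels are therefore given as counts scaled to equal totals over the summed cells of a class (CPM), and shares of cells with a UMI after each cell had been thinned to 2000 UMIs. B cells, gated by Cd79a and Cd79b without CD3 genes (median 4148 to 6663 UMIs), gave a background for free RNA. This gate leaves out cells with a CD3 UMI, so it may understate free T-cell RNA. Between 12 and 29 barcode sequences were shared by a pair of libraries.

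Other cell types left RNA in the T classes. The summed level of 6 B-cell markers ran from 1229 to 6441 CPM in Tregs, from 3405 to 6793 in Pdcd1+ CD4 and from 446 to 8362 in Pdcd1+ CD8 cells, against 14234 to 33223 CPM in the B gate. All 6 myeloid markers together reached 388 to 659 CPM in Tregs, 208 to 431 in Pdcd1+ CD4 and 179 to 249 in Pdcd1+ CD8 cells. The 6 T-cell markers were at 4168 to 5586 CPM in Tregs and at 23.4 to 33.9 CPM in the B gate, which excludes Cd3d, Cd3e and Cd3g. Each count of members was also taken after leaving out T cells with a B-cell or myeloid UMI, and the part of these transcripts in the other results was not tested.

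Foxp3 (X chromosome, 7573644 to 7595245 on the plus strand of mm10) was the narrowest of the 8 genes by the rule itself, since it set the Treg class and was absent from the CD4 classes by definition. It stood at 260, 243 and 252 CPM in the Tregs of libraries 1, 2 and 3, where each cell had to hold a Foxp3 UMI. Of its 4350 UMIs in all kept cells, 77.7% lay in the Treg class and 14.9% in the unclassed Cd3e+ cells. The transcript was sparse: 58.1%, 36.0% and 40.9% of Tregs in the 3 libraries held exactly 1 Foxp3 UMI, and at 2000 UMIs per cell only 49.7% ± 3.76 (SD, n = 3) of them still showed one. CD4 cells may therefore include Tregs whose Foxp3 was not captured. Its locus overlaps Flicr on the same strand, from which its reads cannot be fully separated.

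CD8 cells carried little Foxp3. Levels were 5.91, 9.86 and 7.39 CPM in Pdcd1+ CD8 and 3.10, 3.92 and 2.51 CPM in Pdcd1- CD8 cells, against 0, 0.49 and 0.61 CPM in the B gate. Every CD8 value was above every B-gate value, in a gate that leaves out cells with a CD3 UMI. The Treg level is no measure here, since each Treg had to hold a Foxp3 UMI. Only 59 of 3258 CD8 cells had a Foxp3 UMI, or 1.20%, 2.46% and 1.51% by library, and 48 of these 59 also had an Ikzf2 UMI. These cells were deep, with median counts of 12485, 15322 and 10390 UMIs against 5397, 7665 and 6516 in all CD8 cells, and whether they were single cells was not tested.

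Ikzf2 (Helios, chromosome 1, 69531214 to 69687245, minus strand) had the most UMIs of the 8 genes and was shared with CD8 and CD4 cells that carried Pdcd1. Treg levels were 1176, 914 and 910 CPM. Pdcd1+ CD8 cells reached 348, 240.5 and 418 CPM, and Pdcd1+ CD4 cells 375, 280 and 285 CPM, so these classes overlapped each other but not the Tregs. Without Pdcd1 the levels were 188, 78.2 and 73.6 CPM in CD8 and 246, 81.6 and 66.3 CPM in CD4 cells, library 1 being the highest in each. The B gate held 1.50, 1.48 and 2.19 CPM. Only 34.1% of all 37678 Ikzf2 UMIs lay in Tregs, with 9.14% in Pdcd1+ CD8 and 13.4% in Pdcd1+ CD4 cells.

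At equal depth the same order held for the share of cells with an Ikzf2 UMI. Tregs were at 72.7% ± 5.90, Pdcd1+ CD8 cells at 34.6% ± 6.97 and Pdcd1+ CD4 cells at 34.0% ± 8.03 (SD, n = 3). Pdcd1- cells were at 12.2% ± 6.11 in CD8 and 13.5% ± 9.72 in CD4. B cells were at 0.41% ± 0.39, below every T-cell share. Since the B gate leaves out cells with a CD3 UMI, it may understate free T-cell RNA. The unclassed Cd3e+ cells held a further 27.5% of Ikzf2 UMIs.

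**Figure D1:**
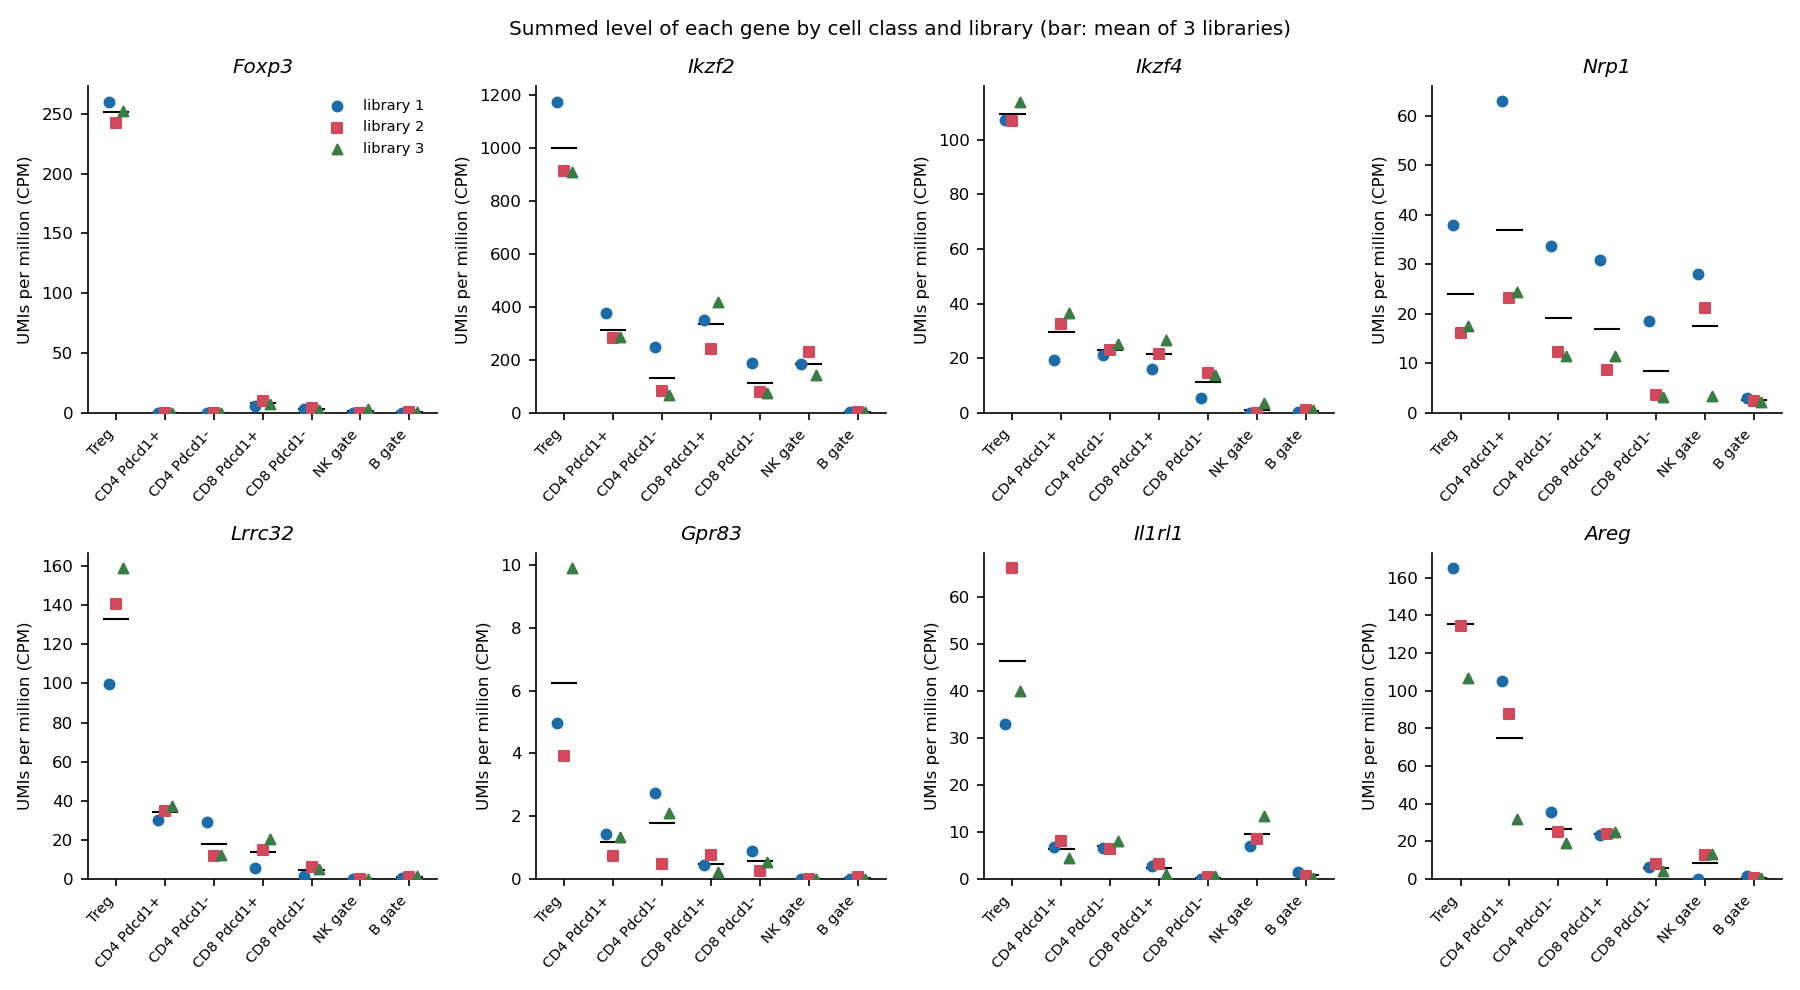
Level of each of the 8 genes (CPM on the vertical axes, linear from 0) in the 5 T-cell classes and in the NK and B gates, with 1 point per library and a line at the mean. Foxp3 is confined by the gate to Tregs and low in CD8 cells, whereas the Pdcd1+ CD8 points of Ikzf2, at 240.5 to 418 CPM, overlap those of Pdcd1+ CD4 cells at 280 to 375 CPM.

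Ikzf4 (Eos, chromosome 10, 128630843 to 128645991, minus strand), the other Ikaros-family member, stood at 107, 107 and 114 CPM in Tregs, which held 31.9% of its UMIs. The other T classes ran from 5.31 CPM (Pdcd1- CD8, library 1) to 36.5 CPM (Pdcd1+ CD4, library 3), and the 3 classes other than Pdcd1- CD8 overlapped each other. The share of cells with an Ikzf4 UMI was 18.8% in Tregs, 5.16% in Pdcd1+ CD4, 3.30% in Pdcd1+ CD8 and 0.12% in B cells.

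Lrrc32 (GARP, chromosome 7, 98489283 to 98502181, plus strand), the receptor that tethers latent TGF-β to the Treg surface, stood at 99.6, 141 and 159 CPM in Tregs. Pdcd1+ CD4 cells had 30.3, 34.6 and 37.6 CPM and Pdcd1+ CD8 cells 5.91, 15.1 and 20.5 CPM, and these 3 classes did not overlap. With Pdcd1 at 0 the levels fell between 11.7 and 29.3 CPM in CD4 and between 1.77 and 6.35 CPM in CD8 cells. Tregs held 42.1% of all Lrrc32 UMIs, the largest Treg share after Foxp3.

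Gpr83 (chromosome 9, 14860210 to 14870789, plus strand), a neuropeptide receptor used as a Treg marker, was close to the limit of detection. Tregs had 9, 21 and 63 UMIs in the 3 libraries, equal to 4.95, 3.91 and 9.90 CPM, with library 3 well above the others. CD4 cells ran from 0.49 to 2.74 CPM and CD8 cells from 0.24 to 0.89 CPM. All CD8 values rested on 4 UMIs or fewer per library and class.

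Il1rl1 (ST2, chromosome 1, 40429570 to 40465415, plus strand), the receptor for the alarmin IL-33, was rare but among the most Treg-weighted of the genes. Treg levels were 33.0, 66.2 and 40.1 CPM. CD4 cells held 6.73, 8.21 and 4.50 CPM with Pdcd1 and 6.57, 6.37 and 8.19 CPM without, which overlapped. Pdcd1+ CD8 cells had 23 UMIs in all (2.73, 3.11 and 1.19 CPM) and Pdcd1- CD8 cells 7 UMIs (0, 0.41 and 0.56 CPM), and the B gate reached 1.50 CPM. At 2000 UMIs per cell, 6.30% of Tregs and 0.16% of Pdcd1+ CD8 cells had an Il1rl1 UMI, the second close to the 0.13% of B cells. A further 23.2% of Il1rl1 UMIs lay in cells without a Cd3e UMI that met none of the other gates, and 18.9% in the unclassed Cd3e+ cells.

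Il1rl1 has 2 start sites in RefSeq, and the inner one is shown because it held both Treg-related motifs found in the 7 promoter entries for 5 of the members. The window runs from 250 bases before to 50 bases after the start (GRCm38.p6, chr1:40439379-40439678, plus strand), with capitals for the forkhead motif GTAAACA at -117 and the RUNX motif TGTGGT at -6. Of 32851 promoters of this length, 3.65% held the forkhead letters and 16.8% the RUNX letters on either strand.
Il1rl1: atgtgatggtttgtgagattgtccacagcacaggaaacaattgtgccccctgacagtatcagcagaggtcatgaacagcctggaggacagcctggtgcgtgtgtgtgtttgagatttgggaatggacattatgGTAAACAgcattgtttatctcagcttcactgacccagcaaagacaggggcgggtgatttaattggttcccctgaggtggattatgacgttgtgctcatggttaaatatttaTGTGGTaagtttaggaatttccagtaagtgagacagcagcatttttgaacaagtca

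Areg (chromosome 5, 91139599 to 91148432, plus strand), the epidermal growth factor receptor ligand, was graded rather than restricted. Tregs held 165, 134 and 107 CPM, Pdcd1+ CD4 cells 105, 87.8 and 31.7 CPM and Pdcd1- CD4 cells 35.6, 25.2 and 19.4 CPM. Each library kept this order, although the lowest Treg value lay only just above the highest Pdcd1+ CD4 value. Pdcd1+ CD8 cells were at 23.7, 23.9 and 24.8 CPM and Pdcd1- CD8 cells at 6.20, 7.97 and 4.04 CPM. The share of cells with an Areg UMI was 17.7% in Tregs, 7.46% in Pdcd1+ CD4, 2.70% in Pdcd1+ CD8 and 0.18% in B cells.

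The Areg promoter is shown because Areg moved with Ikzf2 in the comparisons given further on. Its window (GRCm38.p6, RefSeq, chr5:91139349-91139648, plus strand) held 1 match, the cyclic AMP response element TGACGTCA at -61, in capitals. These letters were in 1.79% of the promoters. The AP-1 motif TGANTCA, in 7.81% of promoters, and the nuclear receptor half-site AAAGGTCA, in 1.51%, had no match in any member window.
Areg: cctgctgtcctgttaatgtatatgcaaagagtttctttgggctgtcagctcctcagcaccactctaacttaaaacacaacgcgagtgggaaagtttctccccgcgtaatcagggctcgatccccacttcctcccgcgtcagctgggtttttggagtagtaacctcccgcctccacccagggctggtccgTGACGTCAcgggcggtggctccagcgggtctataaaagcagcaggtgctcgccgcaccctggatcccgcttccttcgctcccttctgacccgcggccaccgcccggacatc

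Nrp1 (neuropilin-1, chromosome 8, 128358604 to 128503363, plus strand), a semaphorin and VEGF co-receptor often used to separate thymic from peripheral Tregs, did not follow the Treg class. Tregs had 38.0, 16.2 and 17.6 CPM and Pdcd1+ CD4 cells 63.0, 23.2 and 24.3 CPM. Library 1 was the highest in every T class, and within each library Pdcd1+ CD4 cells were above Tregs. Pdcd1+ CD8 cells were at 30.9, 8.56 and 11.4 CPM. Only 11.2% of Nrp1 UMIs lay in Tregs, and 4.85% of Tregs against 8.16% of Pdcd1+ CD4 cells had a UMI at equal depth.

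**Figure D2:**
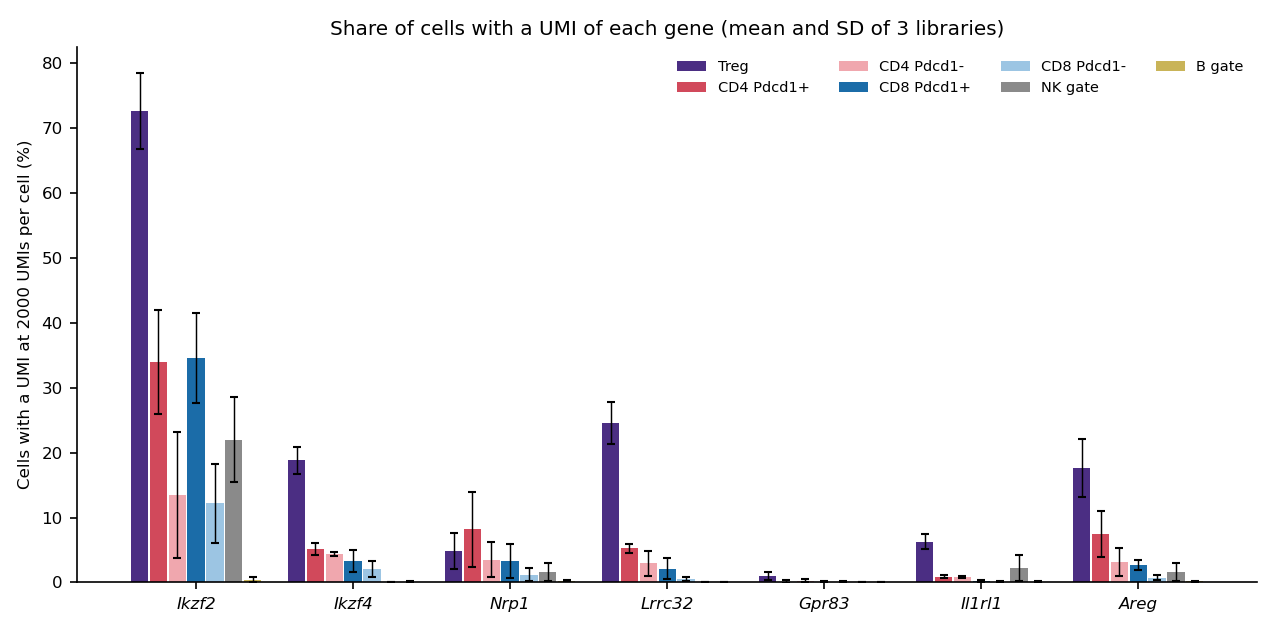
Share of cells with a UMI of 7 of the genes after thinning each cell to 2000 UMIs (vertical axis, percent), as mean and SD of 3 libraries for the 5 T-cell classes and the NK and B gates. Ikzf2 was found in 72.7% of Tregs and in 34.6% of Pdcd1+ CD8 cells, while Nrp1 is the gene for which the Treg bar (4.85%) is lower than that of Pdcd1+ CD4 cells (8.16%).

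The classes were then compared by summing UMIs per library and class and fitting all 15 sums together with edgeR's quasi-likelihood test, with library as a block. Results are given as log2 fold changes ± SE with p-values adjusted over all genes, and a gene was called at an adjusted p under 0.05. The labels give no more than 3 libraries of pooled mice. With library as a block, the p-values rest on how much class differences varied between these libraries, with the spread estimated over all 15 sums. Each Ikzf2 split given further on was fitted apart from these, on its own 6 sums. The spread behind its p-values was estimated from those 6 sums alone. All 4 Treg comparisons share the same Treg sums. Tregs were not split by Pdcd1, and 175, 193 and 277 of them in libraries 1, 2 and 3 had no Pdcd1 UMI. The Treg comparisons therefore also differ in Pdcd1, and its part in them was not tested.

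Against Pdcd1+ CD4 cells, 6 of the 7 members tested were higher in Tregs and 1 was lower, where 4.34% of all genes were called higher and 3.95% lower. Il1rl1 differed by 2.94 ± 0.22 (edgeR adjusted p = 5.3e-07) and Lrrc32 by 1.97 ± 0.25 (adjusted p = 0.00010). Gpr83 was at 2.51 ± 0.42 (adjusted p = 0.0011), but it passed the filter on low counts through the Treg sums and 2 Pdcd1- CD4 sums, so it had to be higher in Tregs to be tested at all. Its Treg differences here and in the following comparisons are a description, and 5 of 6 members were higher without it. Both Ikaros factors rose, Ikzf4 by 1.84 ± 0.15 (adjusted p = 9.9e-07) and Ikzf2 by 1.68 ± 0.25 (adjusted p = 0.00040). Areg was higher by 0.98 ± 0.19 (adjusted p = 0.0040), and Nrp1 was lower at -0.55 ± 0.15 (adjusted p = 0.034).

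Some of these calls were lost when libraries or cells were left out. Gpr83 was not called without library 3 (2.14), Nrp1 was not called without library 2 (-0.56) or library 3 (-0.60), and Areg was 0.65 without library 3. Within the study's cell limits (under 6000 UMIs and 5% mitochondrial) neither Areg (0.91) nor Nrp1 (-0.24) was called. With cells thinned to 2000 UMIs and classed again, Areg was at 0.47 and not called. 4 of the 6 B-cell markers, Cd79a among them (0.64), were also called higher in Tregs in this comparison. With cells holding a B-cell or myeloid UMI left out, Ikzf2 was at 1.85, Il1rl1 at 2.82 and Areg at 1.13, all called, whereas Nrp1 at -0.35 was not.

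Against Pdcd1- CD4 cells, 6 of 7 members were higher, where 10.3% of all genes were. Ikzf2 led at 2.98 ± 0.26 (edgeR adjusted p = 1.2e-06), with Lrrc32 at 2.97 ± 0.27 and Il1rl1 at 2.54 ± 0.20. Nrp1 was 0.27 ± 0.16 (adjusted p = 0.28) and passed no threshold. Gpr83, at 1.90 ± 0.37, was not called without library 3 (1.73).

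Tregs and Pdcd1+ CD8 cells were separated by 6 of 7 members, where 10.7% of all genes were higher in Tregs. Il1rl1 was 4.30 ± 0.30 higher (edgeR adjusted p = 6.2e-08) and Lrrc32 3.10 ± 0.30 (adjusted p = 1.8e-06). Ikzf2 had the smallest called difference, 1.46 ± 0.25 (adjusted p = 0.00058). Nrp1 at 0.50 ± 0.18 was not called (adjusted p = 0.064). Gpr83 at 3.55 ± 0.55 lost its call without library 3 (2.61).

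Against Pdcd1- CD8 cells all 7 members tested were higher in Tregs, where 14.1% of all genes were. Il1rl1 was at 6.54 ± 0.36, a value that rests on 7 UMIs in the CD8 class, Lrrc32 at 4.46 ± 0.33 and Areg at 4.15 ± 0.26. Ikzf2 was at 3.04 ± 0.27 (edgeR adjusted p = 4.6e-07), more than against the Pdcd1+ CD8 cells. Here Nrp1 was called as well, at 1.61 ± 0.20 (adjusted p = 1.3e-05).

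**Figure D3:**
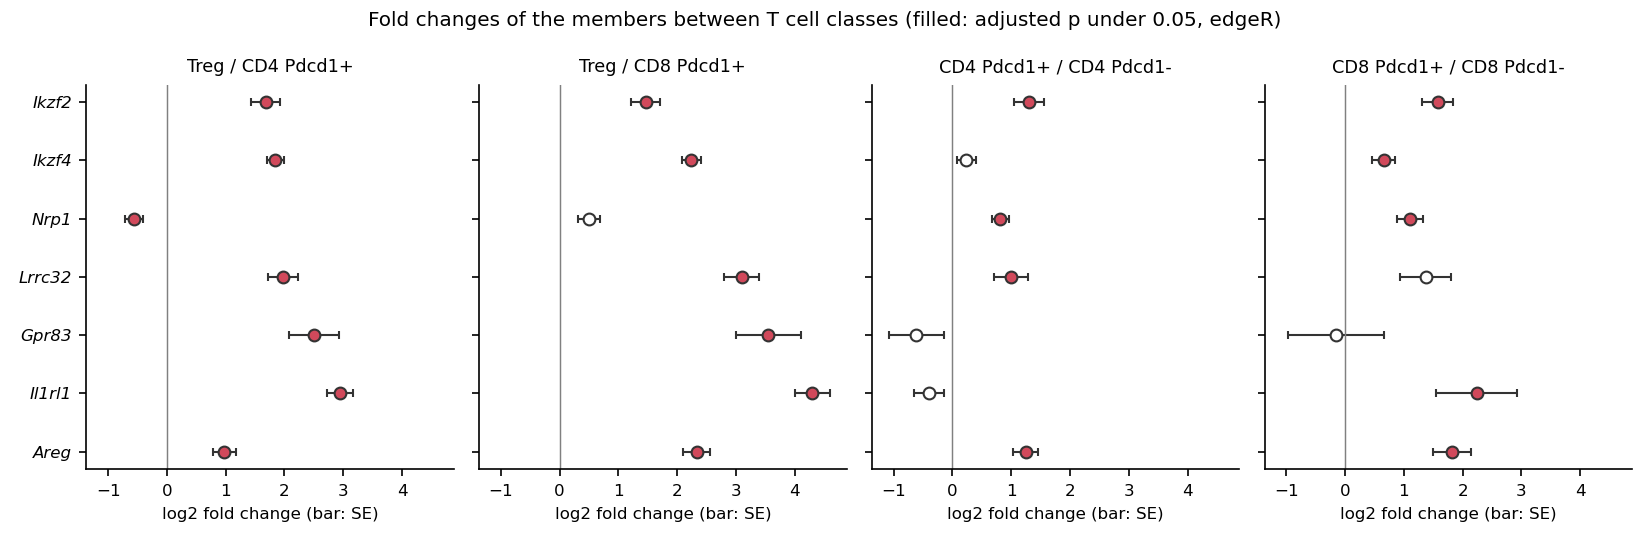
Log2 fold change (horizontal axes, bars for the SE, edgeR, 3 libraries) of 7 of the genes in 4 comparisons between T-cell classes, with filled points for genes called at an adjusted p under 0.05. Il1rl1 reaches 4.30 between Tregs and Pdcd1+ CD8 cells while Ikzf2 is at 1.46, and in the Treg against Pdcd1+ CD4 comparison Nrp1 lies below 0, at -0.55.

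The remaining Treg programme was measured by fixed lists. Of all genes, 4.34% were called higher in Tregs than in Pdcd1+ CD4 cells and 3.95% lower. Of 12 other Treg signature genes, 7 were higher in Tregs than in Pdcd1+ CD4 cells and none was lower (median log2 fold change 0.73, all genes 0.00037). They included Il2ra (CD25) at 2.05, Itgae (CD103) at 3.43, Tnfrsf9 (4-1BB) at 1.44 and Ctla4 at 0.90. Of 9 suppression genes 3 were higher, namely Gzmb (1.56), Il10 (1.00) and Itgb8 (0.60), and of 9 tissue Treg genes Klrg1 (2.88) and Gata3 (0.46) were. The gate used none of these genes. However, the lists were chosen with earlier results of these data known, so the counts are a description and no independent support.

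Pathway partners of the members gave a mixed picture. Among 10 tested, the integrin chains Itgav (0.61) and Itgb8, which activate the TGF-β held by GARP, were higher in Tregs than in Pdcd1+ CD4 cells, and the founding family member Ikzf1 was lower (-0.35). Against Pdcd1+ CD8 cells 2 were higher and 3 lower, among them Ikzf3 (-0.46) and the neuropilin-1 ligand Sema4a (-2.00). Of all 11160 genes tested there, 1197 were called higher and 1034 lower. In that comparison 10 of 12 signature genes were higher, with Il2ra at 2.52 and Tnfrsf4 (OX40) at 2.42. Of 9 suppression genes 5 were higher, Il10 at 3.50 among them, and 2 were lower, Gzmb (-1.32) and Entpd1 (CD39, -0.96).

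Within CD8 cells, 6 of 8 members were higher with Pdcd1 than without, where 6.74% of all genes were. Ikzf2 was 1.57 ± 0.26 higher (edgeR adjusted p = 0.00081), in 3 of 3 libraries. Areg was 1.82 ± 0.32 higher (adjusted p = 0.0013), Nrp1 1.11 ± 0.22 (adjusted p = 0.0029), Ikzf4 0.66 ± 0.20 (adjusted p = 0.039) and Il1rl1 2.24 ± 0.69 (adjusted p = 0.040). Foxp3, the other of the 6, was at 1.14 ± 0.24, with its spread estimated over all 15 sums. The gates had set its level in the Treg and CD4 sums, so its value and its call are a description. Lrrc32 at 1.37 ± 0.44 narrowly missed the threshold (adjusted p = 0.051), and Gpr83 was at -0.15 ± 0.82.

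Of these, Ikzf2 held best. It was still called within the study's cell limits (1.67), with cells thinned to 2000 UMIs and classed again (0.99), without T cells holding B-cell or myeloid UMIs (1.56), without CD8 cells holding Foxp3 (1.63) and without each library in turn. Areg was not called within the study's limits (2.26), nor without B-cell or myeloid UMIs (1.41), and was at -0.23 after thinning, where 2, 1 and 2 UMIs in Pdcd1+ cells faced 4, 7 and 1 in Pdcd1- cells. Foxp3 was not called without library 2 (1.20) or library 3 (0.97), nor was Ikzf4 without library 2 (0.89) or library 3 (0.56). Il1rl1 lost its call without library 1 (1.91) or library 2 (1.85), and Nrp1 without library 3 (0.82). With the cells of the highest doublet scores left out, neither Ikzf4 (0.46) nor Il1rl1 (2.24) was called. Without B-cell or myeloid UMIs, Ikzf4 (0.46) and Il1rl1 (1.84) were not called. Within the study's limits, Ikzf4 (0.25), Il1rl1 (1.10) and Foxp3 (1.84) were not called. Without CD8 cells holding Foxp3, Ikzf4 (0.41) and Il1rl1 (1.69) were not called either. After thinning, none of Foxp3 (1.51), Ikzf4 (0.51), Il1rl1 (0.045) and Nrp1 (0.20) was called. With classes kept and cells thinned, 0.36% of Pdcd1+ and 0.37% of Pdcd1- CD8 cells had a Foxp3 UMI. An Areg UMI was in 2.70% and 0.74% of them. That difference was 1.96 ± 0.39 percentage points (SD, n = 3), in the same direction in 3 of 3 libraries (exact permutation p = 0.25). The gamma-delta T-cell marker Trdc (1.10) and the myeloid marker Cd68 (0.84) were also called higher in Pdcd1+ CD8 cells, with Trdc at 2.73 to 17.4 against 1.77 to 8.78 CPM and Cd68 at 10.5 to 16.5 against 6.21 to 10.2 CPM. With CD8 cells limited to those with Cd8b1 and no Trdc, Ikzf2 was at 1.61, still called. Without the library block only Areg of the 8 was called, and Ikzf2 was at 1.46 (adjusted p = 0.11).

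The share of CD8 cells with an Ikzf2 UMI at equal depth was 22.4 ± 4.32 percentage points higher with Pdcd1 (SD of the paired difference, n = 3, higher in 3 of 3 libraries). An exact two-sided permutation test over 3 pairs gave p = 0.25, the smallest it can give. The share was higher with at least 3 Pdcd1 UMIs than with 0 in every library, though it did not rise at each step. In CD8 cells with 0, 1, 2 and at least 3 Pdcd1 UMIs it was 19.3%, 33.3%, 36.4% and 45.5% in library 1, and 8.8%, 17.6%, 31.5% and 44.2% in library 3. Library 2 had 8.6%, 20.5%, 17.9% and 31.5%. CD4 cells went from 24.7%, 8.5% and 7.3% with no Pdcd1 UMI to 50.0%, 32.8% and 31.5% with at least 3, and Tregs from 74.4%, 58.5% and 60.1% to 80.6%, 82.6% and 79.1%. Tregs of library 1 were at 90.9% and 91.4% with 1 and 2 Pdcd1 UMIs, and those of library 2 at 58.2% with 1. In Tregs of library 1 the Ikzf2 level was 1177 CPM with 0 and 1000 CPM with at least 3. Classes were set before thinning in this count, and deeper cells have more chance of a Pdcd1 UMI.

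**Figure D4:**
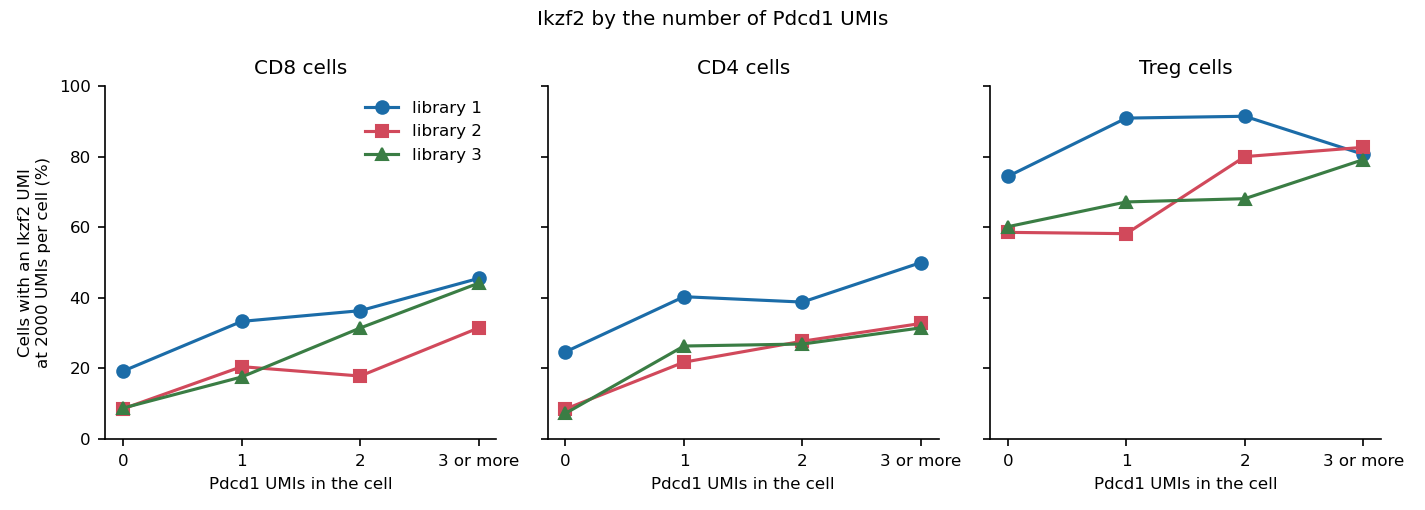
Share of CD8, CD4 and Treg cells with an Ikzf2 UMI at 2000 UMIs per cell (vertical axis, percent) against the number of Pdcd1 UMIs in the cell, with 1 line per library. In CD8 cells the lines start between 8.6% and 19.3% at 0 Pdcd1 UMIs and end between 31.5% and 45.5% at 3 or more.

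Genes of the fixed lists were measured in the same CD8 split, where 752 of all 11161 genes were called higher and 753 lower. Of 18 unconventional or inhibitory CD8 genes, 8 were higher with Pdcd1, such as Havcr2 (TIM3, 1.74), Lag3 (1.56), Tox (1.28) and Tigit (1.25), and 5 were lower, such as Il7r (-1.10) and Klra1 (-1.68). Klra1 belongs to a family of near-identical genes, so its count is uncertain. Of 12 Treg signature genes 7 were higher, including Tnfrsf9 (1.64), and of 9 suppression genes 5 were, including Entpd1 (1.60) and Itgb8 (2.34). Among 10 pathway partners 4 were higher, with Itgav at 1.42 and Ikzf3 (Aiolos) at 0.77.

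In CD4 cells without Foxp3, 4 of 7 members were higher with Pdcd1, where 8.68% of all genes were. Ikzf2 was at 1.30 ± 0.25 (edgeR adjusted p = 0.0021), Areg at 1.25 ± 0.21 (adjusted p = 0.00069), Lrrc32 at 0.99 ± 0.29 (adjusted p = 0.028) and Nrp1 at 0.82 ± 0.15 (adjusted p = 0.0011). Il1rl1 at -0.40 ± 0.26, Gpr83 at -0.61 ± 0.47 and Ikzf4 at 0.24 ± 0.16 were not called. Without library 2, Ikzf2 (1.14), Areg (1.00) and Lrrc32 (0.73) lost their calls, and Lrrc32 also without library 3 (0.68). None of the 4 was called without the library block. Trdc (0.98) and Cd68 (0.92) were called higher in the Pdcd1+ CD4 cells as well, and their part in these values was not tested.

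The difference between the Pdcd1 splits of CD8 and CD4 cells was tested directly, as an interaction. It was called for 0 of 7 members and for 0% of all genes by edgeR, while 753 genes had an unadjusted p under 0.05 and DESeq2 called 18. For Ikzf2 the interaction was 0.27 ± 0.36 (edgeR adjusted p = 0.96), and for Il1rl1 2.64 ± 0.73 (adjusted p = 0.31).

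Between the Pdcd1+ classes, 4 of 7 members were lower in CD8 than in CD4 cells, where 8.14% of all genes were lower. They were Il1rl1 (-1.36 ± 0.40, edgeR adjusted p = 0.029), Areg (-1.35 ± 0.24, adjusted p = 0.00089), Lrrc32 (-1.12 ± 0.33, adjusted p = 0.029) and Nrp1 (-1.06 ± 0.17, adjusted p = 0.00046). Ikzf2 did not pass the test, at 0.22 ± 0.25 (adjusted p = 0.63). Its sign differed between alternatives: it was -0.53 after thinning and classing again, where it was called, -0.10 within the study's cell limits and -0.081 without library 3. With classes kept and cells thinned, the share of cells with an Ikzf2 UMI differed by 0.58 ± 5.09 percentage points (CD8 minus CD4, SD, n = 3, exact permutation p = 1). Without library 2 the calls of Il1rl1 (-1.42), Areg (-1.08) and Lrrc32 (-1.13) were lost, and without library 3 those of Il1rl1 (-1.25) and Lrrc32 (-1.44).

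CD8 cells were next split by Ikzf2 itself, which gave 1079 cells with an Ikzf2 UMI (47.5%, 29.2% and 30.7% of CD8 cells by library) and 2179 without. Cells with Ikzf2 were deeper, with medians of 6675, 9616 and 7815 UMIs against 4613, 7222 and 6177. Areg stood at 21.2, 34.9 and 25.8 CPM in Ikzf2+ CD8 cells and at 5.90, 1.78 and 3.36 CPM in the others. Lrrc32 was at 5.79, 19.97 and 23.7 against 1.07, 3.56 and 3.22 CPM, and Ikzf4 at 14.3, 27.8 and 27.0 against 5.36, 11.1 and 13.3 CPM. Foxp3 was at 5.79, 14.4 and 8.75 against 2.68, 1.37 and 1.68 CPM. For all 4 genes the lowest value with Ikzf2 lay above the highest without.

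By the test 4 of 5 members were higher in Ikzf2+ CD8 cells, where 2.71% of all genes were higher and 2.32% lower. The differences were 3.09 ± 0.28 for Areg (edgeR adjusted p = 6.0e-06), 2.53 ± 0.24 for Lrrc32 (adjusted p = 8.6e-06), 2.48 ± 0.35 for Foxp3 (adjusted p = 0.00040) and 1.08 ± 0.17 for Ikzf4 (adjusted p = 0.00084). Nrp1 was at 0.62 ± 0.22 (adjusted p = 0.13). Foxp3 passed the filter on low counts through the Ikzf2+ sums and 1 other. Areg and Lrrc32 also passed it only with Ikzf2+ sums counted. The differences of these genes are a description, and of the members left Ikzf4 was higher and Nrp1 was not called. When CD8 cells with a Foxp3 UMI were removed, an alternative added after the data had been seen, Ikzf4 was at 0.76, still called. Lrrc32 was then at 1.62 and Areg at 2.94, again as a description. The Lrrc32 level in Ikzf2+ CD8 cells was then 5.18, 7.95 and 12.6 CPM. Without the library block none of the 4 was called, and after thinning too few UMIs were left to test any member. Of 4 myeloid markers tested Lyz2 was called higher in the Ikzf2+ cells, and of 6 B-cell markers Ighm was called lower, and their part in these values was not tested.

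Some genes of the Treg lists were higher in Ikzf2+ CD8 cells, a group that also held 48 of the 59 CD8 cells with a Foxp3 UMI. Of 12 signature genes 5 were higher, with Tnfrsf9 at 166, 199 and 276 CPM against 82.5, 88.2 and 76.9 CPM (1.27) and Izumo1r (folate receptor 4) at 1.21. The other 7 were not called. All 5 (Capg, Ctla4, Izumo1r, Tnfrsf4 and Tnfrsf9) were also called higher in Pdcd1+ than in Pdcd1- CD8 cells. Of 7 suppression genes 4 were higher, Itgb8 at 2.59 among them, and Gzmb, encoding granzyme B, was lower (-0.68). Itgav, the partner chain of Itgb8, was at 1.08. Pdcd1 was higher at 1.15, the same relation that the Pdcd1 split of these cells gave for Ikzf2. Also higher were Tox (1.03), Cd160 (1.00) and Xcl1 (0.96), while Il7r was lower (-0.93). Of 16 unconventional or inhibitory CD8 genes tested, 6 were higher and 3 lower. Itgb8 and Cd160 passed the filter on low counts only with Ikzf2+ sums counted, so their values are a description.

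Tregs varied in Ikzf2 as well. An Ikzf2 UMI was found in 1221 of 1390 Tregs (90.7%, 88.2% and 86.3%), and 169 had none. Tregs without an Ikzf2 UMI were shallower, with medians of 3565, 5654 and 5251 UMIs against 4608, 9406 and 8770. Areg stood at 174, 144 and 115 CPM with Ikzf2 against 26.8, 20.8 and 31.0 without. Ikzf4 was at 113, 113 and 121 against 26.8, 37.0 and 50.5 CPM, and Lrrc32 at 103, 148 and 168 against 53.7, 53.1 and 78.2 CPM. No value of one group reached the other in these 3 genes, but the values without Ikzf2 rest on few UMIs. That group held 26, 57 and 86 cells by library. In library 1 it had 3 Areg, 3 Ikzf4 and 6 Lrrc32 UMIs, and in library 2 it had 9 Areg UMIs.

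Here 3 of 6 members were called higher with Ikzf2, where 1.38% of all genes were. Areg was 2.22 ± 0.24 higher (edgeR adjusted p = 5.1e-05), Ikzf4 1.37 ± 0.22 (adjusted p = 0.0017) and Lrrc32 1.12 ± 0.19 (adjusted p = 0.0028), the last not called without library 3 (1.26). Il1rl1 was at 1.86 ± 0.48 and not called, with 35.2, 68.8 and 44.3 CPM against 0, 37.0 and 0. Nrp1 (0.33 ± 0.38) and Gpr83 (-0.91 ± 0.52) were not called. Of 12 signature genes 6 were higher, among them Itgae (2.46), Tnfrsf9 (1.99) and Tigit (1.92), and the tissue Treg factor Gata3 was at 1.09. Il1rl1, Itgae and Tigit passed the filter on low counts only with Ikzf2+ sums counted, so their values are a description. Without the library block only Areg of the members was called. After thinning, 33 genes were called higher and 84 lower with Ikzf2, against 107 and 65 before, and Areg was at 1.92, still called, while Ikzf4 (1.22) and Lrrc32 (0.64) were not. Of the B-cell markers Ighm was called higher with Ikzf2, and of the myeloid markers Cst3 lower.

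**Figure D5:**
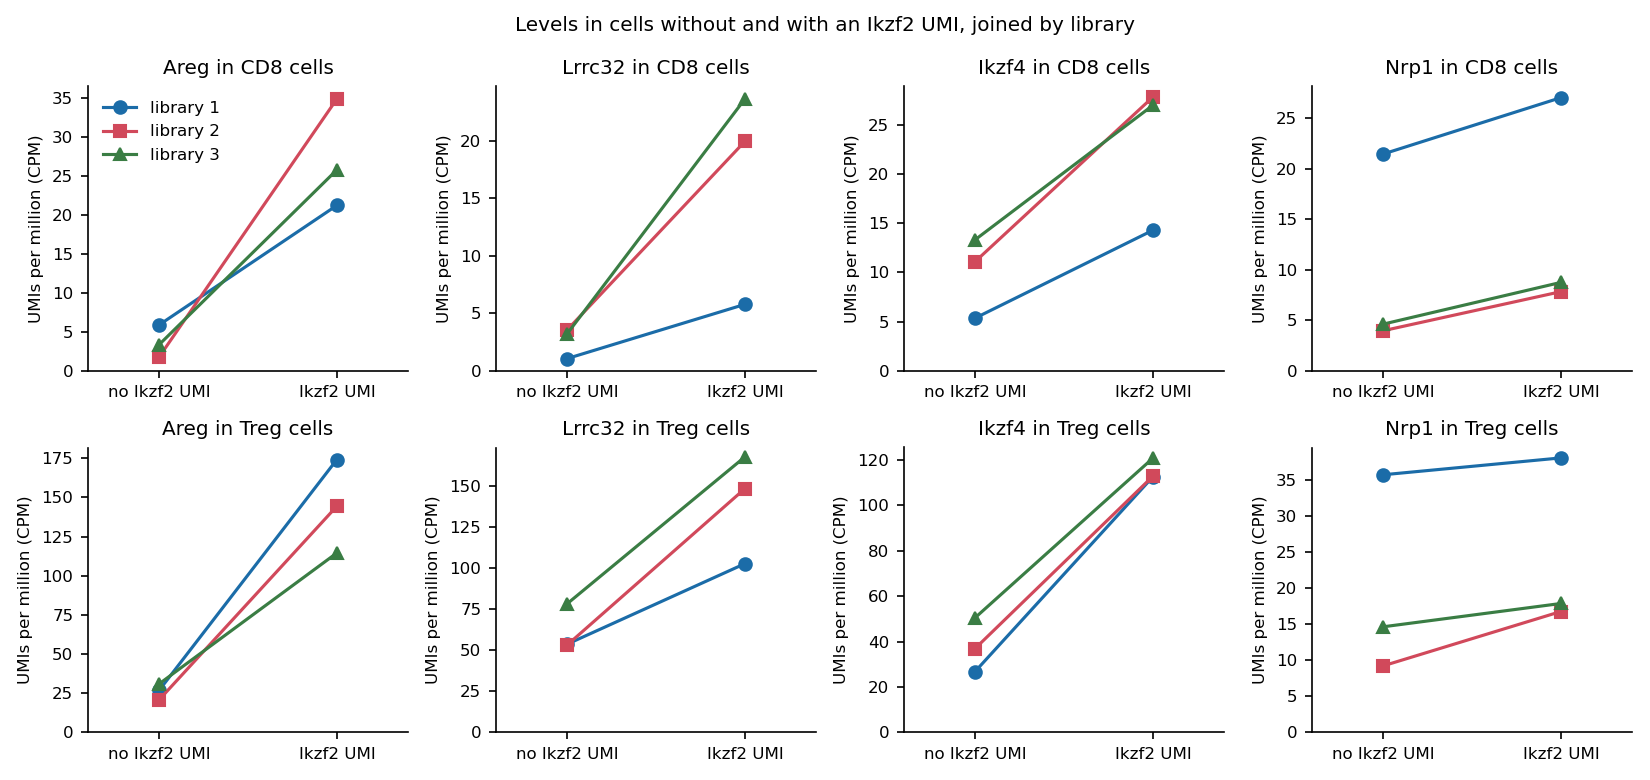
Levels of Areg, Lrrc32, Ikzf4 and Nrp1 (CPM, linear vertical axes) in CD8 cells (top) and Tregs (bottom) without and with an Ikzf2 UMI, each line joining the groups of 1 library. Areg in CD8 cells goes from at most 5.90 to at least 21.2 CPM and in Tregs from at most 31.0 to at least 115 CPM.

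The Foxp3 pattern over the 15 sums was set by the gates, so the genes most like it describe what was highest in the gated Tregs. They were Il18r1 (Pearson r = 0.92 of log2(CPM + 10)), Itgae (0.92), Lamc1 (0.92), Gbp3 (0.90) and Bmyc (0.88) among 5243 genes. Those most like Ikzf2 were Kif20b, Fam129a, Pglyrp1, Naa20 (each 0.96) and Reep5 (0.94). These r values are a description only, since the 15 sums come from 3 libraries and share their depth. Itgae, the integrin that binds E-cadherin, averaged 65.9 CPM in Tregs and 15.0 CPM in Pdcd1+ CD8 cells. Reep5 averaged 309 CPM in Tregs, 226 CPM in Pdcd1+ CD8 and 141 CPM in Pdcd1- CD8 cells.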

How the data were processed

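The authors deposited filtered 10x Genomics tables of raw counts (UMIs per gene and cell), made with Cell Ranger 6.0.1 on mm10, one per library, with no cell annotation. The members and gene lists were chosen with earlier results of these data known. Cells with at least 1000 UMIs and under 10% mitochondrial UMIs were classed by raw UMIs. UMIs were summed per library and class and tested with edgeR 4.0.16 (R 4.3.3): filterByExpr, TMM, quasi-likelihood test, library as a block, Benjamini-Hochberg over all genes, threshold 0.05. Genes that set a class got no test in it, except Foxp3 in the Pdcd1 split of CD8 cells, which is a description. SE is the absolute log2 fold change over the square root of F. The block follows the shared mice of a library: deviations of same-library sums from their class means correlated at 0.49 to 0.81 in 30 pairs. Python 3.11.15 and scanpy 1.11.5 were used for sums, thinning (seeded) and doublet scores. Doublets were kept in the main analysis and the top 7.6% by Scrublet score left out as an alternative. Genes were named by these rules: the members, 2 to 6 genes of each list, the 5 most like Foxp3 and Ikzf2, and the 5 largest called changes each way in the Ikzf2 splits at 20 CPM or more. Gene positions are from GENCODE M21 for mm10, and promoters from RefSeq, GRCm38.p6. The tables held 0 other columns of per-sample values. Alternatives were DESeq2 1.42.0, the filter, no block, other cell limits and gates, thinning, and leaving out each library. No sum was imputed. Tests were also run on simulated sums with known changes. These were drawn independently and without a library effect, so they cannot show how the tests behave on sums paired by library. Gpr83 levels, and Il1rl1 levels in CD8 cells, rest on few UMIs, and UMI counting error is not covered by the SE across libraries alone.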

Additional observations from a re-analysis of the deposited data

Results flagged for a closer look

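Levels in the NK and myeloid gates were compared with the B gate, since these gates enter no comparison. Ikzf2 averaged 184 CPM in 130 NK cells, gated by Ncr1 without CD3 genes (183, 228 and 142 CPM by library, on 26, 54 and 42 UMIs), against 1.48 to 2.19 CPM in the B gate. The NK gate also held T-cell marker transcripts at 745 to 1123 CPM in sum and the gamma-delta marker Trdc at 118 to 183 CPM, whose part in this value was not tested. Nrp1 averaged 20.1 CPM in 255 myeloid cells (19.8, 13.2 and 27.3 CPM, on 15, 9 and 37 UMIs), against 2.19 to 2.99 CPM in the B gate. Other levels above the B gate included Il1rl1 (7.03 to 13.5 CPM, on 7 UMIs) and Nrp1 (3.38 to 28.1 CPM, on 10 UMIs) in NK cells. In the 3329 cells of no gate, Il1rl1 (9.59 to 27.7 CPM) and Areg (31.3 to 53.2 CPM) were above it too. Areg in myeloid cells (111, 0 and 21.4 CPM) was above the B gate in libraries 1 and 3 only.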

How the results depend on the processing

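Of 920 alternative values for 62 member fold changes, 803 kept their direction and their side of the threshold, 82 lost the call, 24 gained one and 11 reversed. The number of genes called in the 10 comparisons moved more. In the order used in the report (Tregs against Pdcd1+ CD4, Pdcd1- CD4, Pdcd1+ CD8 and Pdcd1- CD8; Pdcd1 splits of CD8 and of CD4; Pdcd1+ CD8 against CD4; the interaction; Ikzf2 splits of CD8 and of Tregs) it was 925, 2122, 2231, 2950, 1505, 1802, 1761, 0, 495 and 172. Without the replicate block (the paired analysis is the main one) it was 171, 399, 703, 1191, 168, 166 and 431 for the first 7 and 1 and 12 for the Ikzf2 splits, with 3 members called against Pdcd1+ CD4, 1 and 0 in the Pdcd1 splits, 1 between Pdcd1+ classes, and 0 and 1 in the Ikzf2 splits. Within the study's cell limits it was 1167, 965 and 1560 for the second to the fourth and 786, 556, 17 and 135 for the CD8 Pdcd1 split, Pdcd1+ CD8 against CD4, the interaction and the CD8 Ikzf2 split, with 4 members called against Pdcd1+ CD4 and 2 in the CD8 split. Thinning to 2000 UMIs gave 445, 673, 586, 897, 253, 658, 438 and 5 for the first 8 and 58 for the CD8 Ikzf2 split, with 1 member in the CD8 Pdcd1 split. Leaving out B or myeloid UMIs gave 17 genes for the interaction and 3 members in the CD8 split, CD8 cells with Cd8b1 and no Trdc gave 2 genes for the interaction and 2 members between Pdcd1+ classes, and CD8 cells without Foxp3 (added after seeing the data) gave 3 members in the CD8 split. DESeq2 called 18 genes for the interaction and 187 and 74 in the Ikzf2 splits. With no filter on low counts the interaction had 181 genes and 1 member and the Treg split 297 genes, and min.count 3 gave 319 there. Leaving out 1 library gave 300 to 1224, 712 to 2723, 865 to 2349, 1494 to 3352, 307 to 1844, 333 to 2408, 563 to 1876, 0 to 119, 207 to 667 and 52 to 494 genes, and 5 to 7, 5 to 6, 5 to 7, 7, 3 to 6, 1 to 5, 1 to 5, 0, 4 and 2 to 4 members; the low counts of the first 7 came without library 2 or 3. Reversed values, none of them called in the main analysis except Areg, were Ikzf4 (-0.061, study limits) and Il1rl1 (0.43, study limits; 0.14, thinned; -0.76 to 0.066, without 1 library) in the CD4 Pdcd1 split, Ikzf2 between Pdcd1+ classes (-0.10, study limits; -0.53, thinned; -0.081 to 0.39, without 1 library), Nrp1 against Pdcd1- CD4 (-0.28, thinned), and Areg (-0.23, thinned) and Gpr83 (-1.11 to 0.33, without 1 library) in the CD8 Pdcd1 split. The Ikzf2 share difference in CD8 cells was 15.6 points at 1000 UMIs, 29.8 unthinned and 20.1 to 24.3 without 1 library. The cause was not tested. Thinning removes UMIs and the study's limits remove deep cells, so fewer counts remain in both. For the thinned fits, cells were also classed again, so the classes held other cells. At 2000 UMIs per cell 49.7% of Tregs still showed a Foxp3 UMI, and those without one could enter a CD4 class. The part of each was not tested.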

Other observations

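Beyond the fixed lists, the largest called changes in Ikzf2+ against Ikzf2- CD8 cells, after Areg, were in Nrgn (1.66), Penk, the precursor of enkephalin (1.58), Tnfsf4, OX40 ligand (1.44), and Ptch1, the Hedgehog receptor (1.36). Ptch1 was at 55.6, 56.9 and 68.1 CPM with Ikzf2 and at 24.7, 20.1 and 22.6 CPM without. Lower were Neto2 (-1.10), Cd55 (-1.02), Ifit1bl1 (-1.02) and Atp8b4 (-1.01), and Ighg2b (-4.48), an immunoglobulin transcript whose level without Ikzf2 rested on library 3 (418 CPM against 5.90 and 9.18).

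In Tregs the changes with Ikzf2 included Hist1h1b, a histone gene of dividing cells (3.04), Tmem158 (3.95), and Gm28112 (2.83), a transcript that lies within an intron of Ikzf2 on the same strand. Pclaf, another gene of dividing cells, was called too, at 196, 14.6 and 37.0 CPM with Ikzf2 against 0, 2.31 and 0 CPM without, so its level rested largely on library 1 and its fold has almost no counts on the other side. Igha (4.83) rested on library 2 (676 CPM against 9.97 and 9.21). Tregs without Ikzf2 had more Gbp2b (-3.62), Anxa1 (-2.32), Ifi207 (-2.04), Ciita (-1.94) and Gm4258 (-1.73). Gbp2b, an interferon-induced GTPase, was at 125, 132 and 48.9 CPM without Ikzf2 and at 3.52, 13.8 and 4.87 CPM with it. Each gene of this paragraph passed the filter on low counts only with sums of its higher group counted, so these values are a description.

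At 2000 UMIs per cell, 14.1%, 17.4% and 20.3% of Tregs in libraries 1, 2 and 3 showed none of the other 7 members, 36.9%, 38.1% and 35.5% showed 1, and 3.42%, 2.69% and 3.52% showed at least 4.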
